A study of Mus musculus with 6 samples.

Results

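The genes described here set the pace of the G1 phase of the cell cycle in mouse heart: the D cyclins Ccnd1, Ccnd2 and Ccnd3, their kinases Cdk4 and Cdk6, the kinase inhibitors Cdkn1a and Cdkn1b, the kinase substrate Rb1, and the growth regulators Myc and Mycn. They were chosen by gene name with the comparison of resistant and sensitive hearts already known, in which Ccnd1 had one of the smallest p-values and Mycn one of the larger falls. The differences between genotypes, and the p-values beside them, therefore describe these genes and are not a test of them. The 10 genes are 10 of the 54532 genes in the count table, and all 10 had enough counts to be among the 14866 genes compared.

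RNA was sequenced from whole hearts of 3-month-old male C57BL/6 mice, 3 hearts of each genotype. Resistant hearts, of genotype α1 r/rα2 s/s, came from mice 368, 369 and 370 and carry the native rodent Na/K-ATPase α1, which binds cardiotonic steroids weakly. Sensitive hearts, of genotype α1 s/sα2 s/s, came from mice 379, 380 and 381 and carry an α1 altered by amino acid substitutions, which binds them tightly. Both genotypes share the sensitive α2 alleles. The altered α1 is present in all cells of the animal and not in cardiomyocytes alone, and the study describes its control mice as littermates. The total count was 20240817, 19710942 and 20165386 in resistant hearts and 20470065, 19309312 and 20427506 in sensitive hearts. Mitochondrially encoded genes took 23.9%, 23.4% and 24.4% of the counts in resistant hearts and 25.0%, 25.3% and 26.0% in sensitive hearts. That share was higher in each sensitive heart. With mitochondrially encoded and globin genes left out, 213 genes were called in place of 214, and the log2 fold change was -0.97 for Ccnd1 and -1.335 for Mycn, both still called by edgeR. The heart label was checked against markers, and the cardiomyocyte markers together reached 54620 ± 6648 and 56604 ± 2289 CPM (counts scaled to the library size with edgeR's TMM factors; SD, n = 3), with Myh6 the most abundant of them.

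D cyclins bind Cdk4 or Cdk6, and the active kinase phosphorylates the retinoblastoma protein, the product of Rb1, which then releases E2F transcription factors that switch on genes of DNA replication. The inhibitors p21 (Cdkn1a) and p27 (Cdkn1b) hold these kinases and their relatives in check, and Myc and Mycn are transcription factors that drive growth and raise D cyclin and ribosome production. Most cardiomyocytes of the adult mouse have left the cell cycle, and whole heart RNA also holds transcripts of the other cell types.

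Ccnd1 (ENSMUSG00000070348, chr7:144929931-144939925 of mm10, minus strand) encodes cyclin D1. It had 1071, 1296 and 1079 counts in resistant hearts and 585, 547 and 532 in sensitive hearts. No sensitive heart reached the lowest resistant heart, and the sensitive values lay close together. Its mean was 55.8 ± 5.55 CPM in resistant hearts and 28.5 ± 0.772 CPM in sensitive hearts (SD, n = 3). The log2 fold change of sensitive over resistant hearts was -0.97 (standard error 0.09, 95% interval -1.16 to -0.78, adjusted p = 0.000106 by the quasi-likelihood test of edgeR, Benjamini-Hochberg adjusted). That p ranked 2 among the 14866 genes, and the call was kept in 13 of 13 alternatives, including each of the 6 that leave out a heart. Of all tested genes, 214 (1.44%) passed the threshold of 0.05, 98 of them lower (0.659%) and 116 higher (0.78%) in sensitive hearts, while 2150 had an unadjusted p under 0.05, and 2972 (20%) had no overlap between genotypes, 1484 of them lower (9.98%). The balance of directions turned with the scaling, with 108 higher and 123 lower under upper-quartile factors, while DESeq2 called 246 higher and 157 lower. Of the 10 genes, 2 passed it, Ccnd1 and Mycn, both lower in sensitive hearts, and these 2 were also the members without overlap. Fewer cells of a type and less RNA per cell cannot be told apart in whole heart RNA.

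Cyclins D2 and D3 act on the same kinases. Ccnd2 (chr6:127125162-127152193) had 2442, 2188 and 2449 counts in resistant hearts and 2321, 2258 and 2148 in sensitive hearts. Ccnd3 (chr17:47505051-47599691) had 684, 774 and 701 counts in resistant hearts and 669, 693 and 682 in sensitive hearts. For both genes the genotypes overlapped. The log2 fold change of Ccnd2 was 0.01 (95% interval -0.15 to 0.16) and that of Ccnd3 was 0.00 (95% interval -0.18 to 0.19), with signs that turned negative under upper-quartile scaling.

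Per length, as TMM-normalized CPM per kilobase, the 3 D cyclins can be set side by side. The length was the count table's single value for each gene, 4709 bases for Ccnd1, 9409 for Ccnd2 and 8775 for Ccnd3. The lengths of the transcripts expressed in these hearts were not measured. Shares, ratios and orders per length depend on the length used. Ccnd1 made up 40.3%, 46.2% and 40.2% of the summed D cyclin level in resistant hearts and 27.8%, 26.7% and 27.0% in sensitive hearts. The share of Ccnd2 was 43.6% ± 3.93 in resistant and 54.9% ± 0.389 in sensitive hearts (SD, n = 3), and that of Ccnd3 was 14.2% ± 0.524 and 17.9% ± 0.777. The summed level was 28.0 ± 0.905 CPM per kilobase in resistant hearts and 22.3 ± 0.582 in sensitive hearts (SD, n = 3), with no overlap. Shares add up to the whole, so the higher shares of Ccnd2 and Ccnd3 go with the lower level of Ccnd1. The ratio of Ccnd1 to Ccnd2 per length was 0.876, 1.18 and 0.880 in resistant hearts and 0.504, 0.484 and 0.495 in sensitive hearts. Ccnd2 thus exceeded Ccnd1 per length in each heart other than that of mouse 369.

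**Figure D1:**
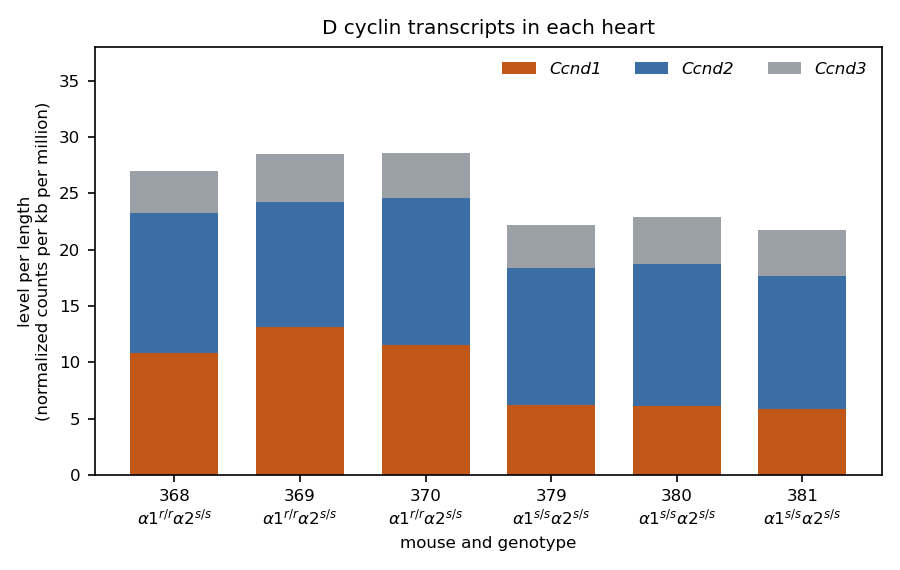
Level per length of Ccnd1, Ccnd2 and Ccnd3 (TMM-normalized CPM per kilobase, stacked) in each of the 6 hearts, named by mouse and genotype. The Ccnd1 segment is shorter in each sensitive heart, and the summed level was 28.0 in resistant and 22.3 in sensitive hearts on average.

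Cdk4 (chr10:127063534-127067920) encodes the kinase most often paired with D cyclins. It had 677, 685 and 603 counts in resistant hearts and 612, 509 and 561 in sensitive hearts. The genotypes overlapped, and the log2 fold change was -0.14 (95% interval -0.34 to 0.05). Cdk6 (chr5:3341485-3531008), its close relative, had 415, 528 and 329 counts in resistant hearts and 380, 411 and 437 in sensitive hearts. The resistant hearts spread more widely than the sensitive hearts and enclosed them, with a log2 fold change of 0.04 (95% interval -0.26 to 0.33). Per length, Cdk4 exceeded Cdk6 by a ratio of 6.83 ± 1.16 in resistant and 5.93 ± 0.874 in sensitive hearts (SD, n = 3), and the genotypes overlapped. Rb1 (chr14:73183673-73325822), the substrate of these kinases, had 701, 736 and 667 counts in resistant hearts and 650, 664 and 621 in sensitive hearts. Its log2 fold change was -0.04 (95% interval -0.22 to 0.14). The raw counts of Rb1 lay just apart, at 664 in the highest sensitive and 667 in the lowest resistant heart, while its CPM overlapped, with 33.5, 35.2 and 33.5 in resistant hearts and 32.3, 34.9 and 32.2 in sensitive hearts.

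Among the inhibitors, Cdkn1a (chr17:29090976-29100727), which p53 induces, had 328, 576 and 444 counts in resistant hearts and 495, 539 and 729 in sensitive hearts. Mouse 368 was lowest and mouse 381 highest, and the other 4 hearts lay between 444 and 576 counts in both genotypes. Its log2 fold change was 0.47 (95% interval 0.09 to 0.85), with an adjusted p of 0.228 by the quasi-likelihood test of edgeR, Benjamini-Hochberg adjusted. Leaving out 1 heart moved the log2 fold change to 0.28 without mouse 368, 0.28 without mouse 381 and 0.68 without mouse 369. Without a filter on low counts the adjusted p was 0.00136, and over 13 alternatives it ranged from 0.00136 to 0.585. Cdkn1b (chr6:134920401-134925513) had 1179, 925 and 967 counts in resistant hearts and 1059, 1109 and 987 in sensitive hearts, which overlapped. Its log2 fold change was 0.12 (95% interval -0.08 to 0.32). Per length, the ratio of Cdkn1a to Cdkn1b was 0.581 ± 0.221 in resistant and 0.723 ± 0.194 in sensitive hearts (SD, n = 3).

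Mycn (ENSMUSG00000037169, chr12:12936093-12941914, minus strand) encodes N-Myc, the family member best known from embryonic tissues, where it is needed for growth of the developing heart. It had 128, 78 and 68 counts in resistant hearts and 28, 28 and 46 in sensitive hearts. The genotypes did not overlap, and mouse 368 stood above the other resistant hearts. Its mean was 4.42 ± 1.47 CPM in resistant hearts and 1.75 ± 0.553 CPM in sensitive hearts (SD, n = 3). The log2 fold change was -1.34 (standard error 0.31, 95% interval -2.00 to -0.68, adjusted p = 0.0460 by the quasi-likelihood test of edgeR, Benjamini-Hochberg adjusted). The call was lost without mouse 368 (adjusted p = 0.240), mouse 369 (0.0705), mouse 379 (0.132) or mouse 380 (0.136) in the same test, and it was kept in 2 of the 6 fits that leave out a heart. DESeq2 gave Mycn a log2 fold change of -1.33 and no adjusted p. Myc (chr15:61985391-61990374), the c-Myc gene, had 85, 73 and 41 counts in resistant hearts and 89, 48 and 42 in sensitive hearts, which overlapped. At this depth its log2 fold change of -0.07 had a 95% interval of -0.76 to 0.61. The ratio of Mycn to Myc per length was 1.24, 0.881 and 1.37 in resistant hearts and 0.259, 0.481 and 0.903 in sensitive hearts, and the highest sensitive heart passed the lowest resistant heart.

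**Figure D2:**
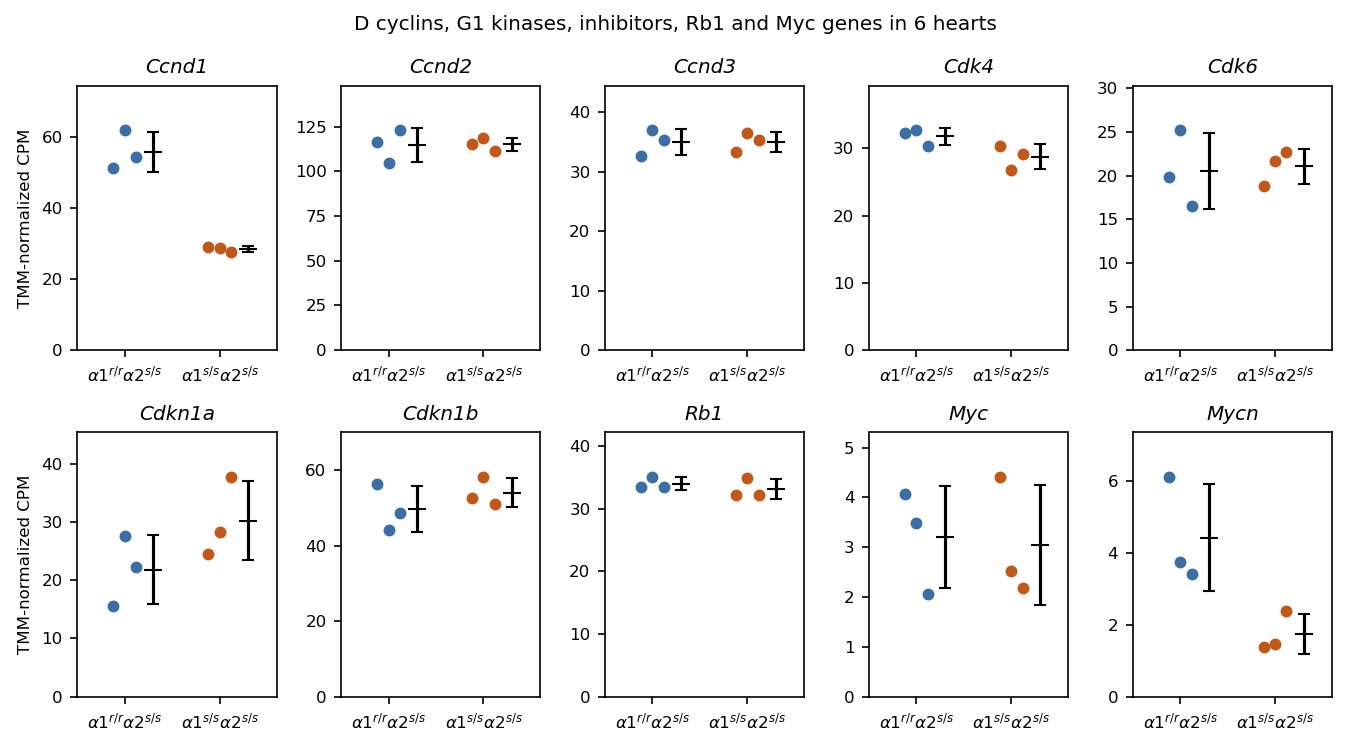
TMM-normalized CPM of the 10 genes in each heart (points) with the mean and SD of each genotype (black dash and bars), 3 hearts per genotype and each axis starting at 0. Ccnd1 and Mycn are the panels whose genotypes do not overlap, with means of 55.8 and 28.5 CPM for Ccnd1 and of 4.42 and 1.75 CPM for Mycn.

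Over the 10 genes, 5 had a positive and 5 a negative log2 fold change, and the median was -0.02, beside -0.01 over all tested genes. The 8 genes that did not pass the threshold had log2 fold changes from -0.14 to 0.47 and adjusted p from 0.228 to 0.993 by the quasi-likelihood test of edgeR, Benjamini-Hochberg adjusted.

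The members were also ordered by level over all 6 hearts, although the places of Ccnd1, Myc and Mycn, among others, differ with genotype. Per length, from high to low mean log2 level, the order ran Ccnd2, Cdkn1b, Cdk4, Ccnd1, Cdkn1a, Rb1, Ccnd3, Cdk6, Myc and Mycn. Ccnd2 was highest in both genotypes, at 12.2 ± 0.999 CPM per kilobase in resistant and 12.2 ± 0.392 in sensitive hearts (SD, n = 3). The lowest mean was that of Myc in resistant hearts, at 1.18 ± 0.379 CPM per kilobase, beside 1.34 ± 0.448 for Mycn (SD, n = 3). In sensitive hearts it was that of Mycn, at 0.531 ± 0.168 CPM per kilobase, beside 1.12 ± 0.444 for Myc (SD, n = 3). Of the 9 pairs of neighbours in the order, 0 passed an exact two-sided sign-flip permutation test after Benjamini-Hochberg adjustment over the 9 pairs, and 2 had an unadjusted p under 0.05. At least 6 of the 9 pairs would have to reach the smallest p for any to pass, so the count of 0 does not show that neighbours are alike. Rb1 lay above Ccnd3 in 6 of 6 hearts, by 0.49 on the log2 scale, and Ccnd3 lay above Cdk6 in 6 of 6 hearts, by 1.44, each with an exact permutation p of 0.03125, the smallest that 6 hearts allow, and an adjusted p of 0.141. The pairs and their direction were taken from the same levels, so these p-values describe the order and do not test it independently. Not divided by length, Ccnd3 lay above Rb1 in 5 of 6 hearts, by 0.06 on the log2 CPM scale. Per length, the ranges of those 2 pairs were apart and those of the other 7 pairs overlapped. Ccnd1 ranked 2 per length in resistant hearts and 5 in sensitive hearts.

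Related genes were taken from lists of the pathway. The lists were written from textbook roles with earlier results of these data known, the fall of Tfrc among them, and their counts are a description. Of 120 genes in 6 lists, 113 were tested, and 1 was called higher and 3 lower in sensitive hearts by the quasi-likelihood test of edgeR, Benjamini-Hochberg adjusted. Beside them, 1.44% of all tested genes were called, 0.78% higher and 0.659% lower, and 14.5% had an unadjusted p under 0.05 in the same test.

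The other regulators of G1 and S phase entry, such as cyclin E, further inhibitors and the E2F factors, had 0 of 24 tested genes past edgeR's threshold, 11 with a positive and 13 with a negative log2 fold change and a median of -0.01, beside -0.01 over all tested genes. Among them 3 had an unadjusted p under 0.05 in edgeR and DESeq2 called 1, Tfdp2. The summed level was 446 ± 3.86 CPM in resistant and 482 ± 11.0 CPM in sensitive hearts (SD, n = 3), without overlap, and E2f6 was the most abundant. Within that sum, mean CPM in resistant and sensitive hearts was 90.4 and 109 for Tfdp2, 102 and 113 for E2f6, and 52.8 and 57.5 for Rbl2. The higher sum lay mainly in these genes, while 13 of the 24 tested genes had a negative log2 fold change. The activator E2f1 had 34, 44 and 17 counts in resistant hearts and 22, 11 and 13 in sensitive hearts, which overlapped. Its log2 fold change was -0.96 (95% interval -1.90 to -0.02), and that of E2f8, a repressor of the same family, was -0.50 (95% interval -1.44 to 0.44).

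The textbook E2F target genes, the replication and mitosis genes downstream of Rb1, had more negative than positive differences. Of 19 tested genes, 15 had a negative and 4 a positive log2 fold change, with a median of -0.16 beside -0.01 over all tested genes. By edgeR 1 was called, 6 had an unadjusted p under 0.05 and 7 had no overlap between genotypes. The shares over all tested genes were 1.44% called, 14.5% with such a p and 20% without overlap. Without overlap too were 8 of 23 Myc targets, 6 of 17 Myc network genes and 5 of 12 turnover and chaperone genes. So were 4 of 24 other G1 and S phase regulators and 3 of 18 p53 targets. Among the 7 E2F targets without overlap were the proliferation marker gene Mki67 and the replication helicase genes Mcm2, Mcm3 and Mcm5, named after their values were seen. They were lower in each sensitive heart without passing the threshold (adjusted p from 0.0825 to 0.227 by edgeR). The other helicase genes of the list, Mcm4, Mcm6 and Mcm7, overlapped between genotypes, with log2 fold changes of -0.35, -0.07 and 0.11. The list's summed level was 129, 141 and 134 CPM in resistant hearts and 115, 110 and 118 CPM in sensitive hearts, with Pcna the most abundant. No sensitive heart reached a resistant heart in that sum. Top2a, the topoisomerase of dividing cells, had 132, 160 and 113 counts in resistant hearts and 56, 60 and 76 in sensitive hearts. Every sensitive heart was below every resistant heart. Its log2 fold change of -0.99 had a standard error of 0.21 (adjusted p = 0.0318 by the quasi-likelihood test of edgeR, Benjamini-Hochberg adjusted). The Top2a call was lost without mouse 368 (adjusted p = 0.0924), mouse 369 (0.132), mouse 379 (0.104) or mouse 380 (0.0918) in the same test of edgeR. Ccna2, the S phase cyclin A2, had 49, 48 and 43 counts in resistant hearts and 21, 24 and 17 in sensitive hearts without passing the threshold (adjusted p = 0.129 by edgeR). Mybl2 had between 2 and 12 counts in any heart and a log2 fold change of -0.91 (95% interval -2.26 to 0.44).

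The textbook Myc target genes had 2 of 23 tested genes called, both lower in sensitive hearts, while 13 had a positive and 10 a negative log2 fold change, with a median of 0.03. In edgeR 7 had an unadjusted p under 0.05. The shares over all tested genes were 1.44% called, 0.659% called lower and 14.5% with an unadjusted p under 0.05. Their summed level was 2185 ± 55.3 CPM in resistant and 2184 ± 119 CPM in sensitive hearts (SD, n = 3), with Ldha the most abundant. Tfrc, the transferrin receptor gene, had 2088, 3244 and 2030 counts in resistant hearts and 811, 884 and 767 in sensitive hearts. Odc1, the rate-limiting enzyme of polyamine synthesis, had 1380, 1166 and 1223 counts in resistant hearts and 756, 765 and 827 in sensitive hearts. For both genes the genotypes did not overlap. The log2 fold change of Tfrc was -1.50 (standard error 0.14, adjusted p = 0.000106 by the quasi-likelihood test of edgeR, Benjamini-Hochberg adjusted). The log2 fold change of Odc1 was -0.60 (standard error 0.09, adjusted p = 0.00278 by edgeR in the same test). Both calls were kept in 6 of 6 fits that leave out a heart. Nme1, a nucleoside diphosphate kinase, had a log2 fold change of -0.56 (95% interval -0.89 to -0.22, adjusted p = 0.103 by edgeR), and the nucleolar protein gene Nop56 had one of 0.27 (95% interval 0.05 to 0.48).

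The Myc network, its partner Max, the Mxd and Mnt antagonists and the factors that stabilize or degrade Myc proteins, had 0 of 17 tested genes called by edgeR, with 9 positive and 8 negative log2 fold changes and a median of 0.02. In edgeR 4 had an unadjusted p under 0.05, and DESeq2 called 1, Mlxip. Its summed level overlapped between genotypes, at 1001 ± 28.9 CPM in resistant and 1023 ± 16.2 CPM in sensitive hearts (SD, n = 3), with Huwe1 the most abundant. Aurka, a mitotic kinase that stabilizes N-Myc, had 26, 24 and 26 counts in resistant hearts and 8, 11 and 5 in sensitive hearts. Each sensitive heart lay below the resistant hearts, with a log2 fold change of -1.57 (95% interval -2.56 to -0.58) and an adjusted p of 0.124 by edgeR. Mnt, a repressor that competes for Max, had a log2 fold change of 0.33 (95% interval 0.07 to 0.58).

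D cyclin turnover and the Cdk4 chaperones had 12 tested genes, of which 9 had a positive and 3 a negative log2 fold change, with a median of 0.12. By edgeR 1 was called, Fbxo31, and 3 had an unadjusted p under 0.05, while DESeq2 called 3, Fbxo31, Hsp90ab1 and Hsp90aa1. Their summed level was 2041 ± 174 CPM in resistant and 2347 ± 59.3 CPM in sensitive hearts (SD, n = 3), without overlap, with Hsp90ab1 the most abundant. Within that sum, mean CPM in resistant and sensitive hearts was 1119 and 1317 for Hsp90ab1, and 189 and 237 for Hsp90aa1. The higher sum lay mainly in these chaperone genes. The 3 negative log2 fold changes were those of the turnover genes Gsk3b (-0.05), Ambra1 (-0.10) and Fbxw8 (-0.06). Fbxo31, an F-box protein that targets cyclin D1 for degradation, had 1892, 1842 and 1776 counts in resistant hearts and 2183, 2028 and 2310 in sensitive hearts. Each sensitive heart lay above each resistant heart. Its log2 fold change of 0.32 had a standard error of 0.07 (adjusted p = 0.0323 by the quasi-likelihood test of edgeR, Benjamini-Hochberg adjusted). The Fbxo31 call was lost without any one heart, with an adjusted p in the same test of edgeR of 0.116 without mouse 368, 0.0960 without 369, 0.0694 without 370, 0.0696 without 379, 0.0581 without 380 and 0.123 without 381. DESeq2 gave it an adjusted p of 0.00193. The log2 fold change of Fbxo4, another F-box protein linked to cyclin D1, was 0.35 (95% interval -0.0031 to 0.711), and that of the chaperone Hsp90aa1 was 0.32 (95% interval 0.10 to 0.55).

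The textbook p53 target genes, a class that includes Cdkn1a, had 0 of 18 genes called by edgeR, with 10 positive and 8 negative log2 fold changes and a median of 0.05. In edgeR 3 had an unadjusted p under 0.05, and DESeq2 called 1, Trp53inp1. The summed level was 1577 ± 24.0 CPM in resistant and 1658 ± 29.7 CPM in sensitive hearts (SD, n = 3), without overlap, with Ccng1 the most abundant. Within that sum, mean CPM in resistant and sensitive hearts was 1038 and 1081 for Ccng1, and 124 and 142 for Sesn1. The higher sum lay mainly in these genes, and each of them overlapped between genotypes. Trp53inp1 had a log2 fold change of 0.46 (95% interval 0.18 to 0.74) and the death receptor gene Fas one of 0.43 (95% interval 0.19 to 0.66).

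**Figure D3:**
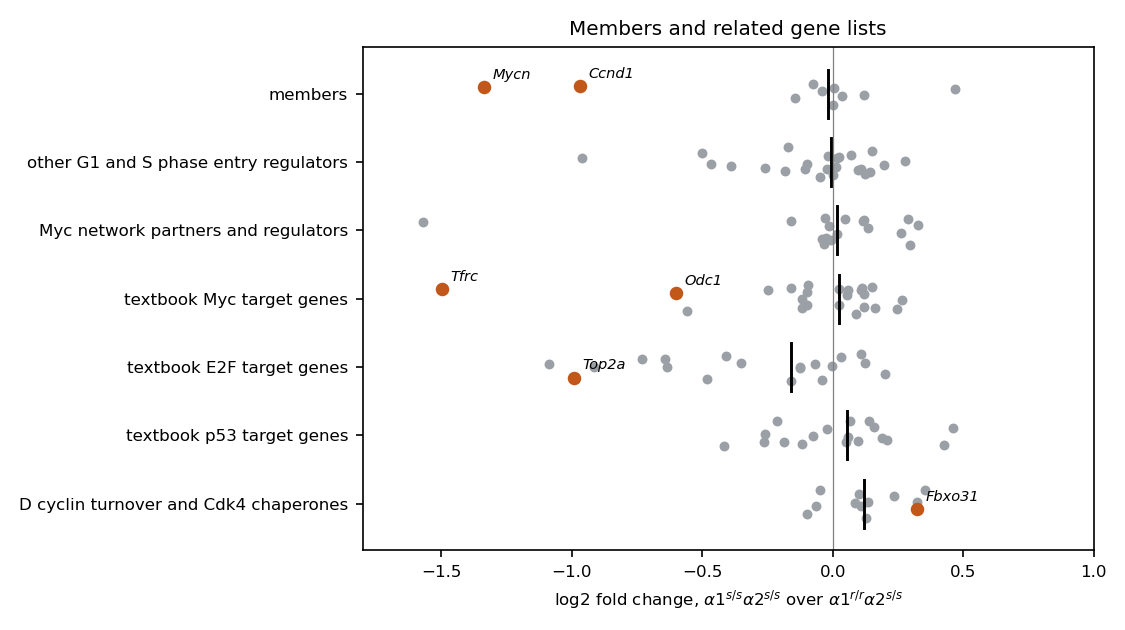
Log2 fold change of sensitive over resistant hearts for the 10 genes and the tested genes of 6 related lists, 1 point per gene, with vertical offsets only to separate points. Orange points passed edgeR's adjusted p threshold of 0.05 and are named, and grey points did not. Black bars are medians, which run from -0.16 for the E2F targets to 0.12 for D cyclin turnover and Cdk4 chaperones.

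Markers of heart cell types were read in the same hearts. Of 54 marker genes in 9 lists, 50 were tested and 0 were called by edgeR, where 15 (30%) had an unadjusted p under 0.05, beside 14.5% of all tested genes, and DESeq2 called 5, and the summed level overlapped between genotypes in each list. The 5 that DESeq2 called, C1qa, Mrc1, Acta2, Col1a1 and Myl7, were lower in sensitive hearts and are named after their values were seen. The macrophage markers summed to 219, 294 and 191 CPM in resistant hearts and 195, 185 and 148 CPM in sensitive hearts, with Csf1r the most abundant. All 6 macrophage markers had a negative log2 fold change, with a median of -0.45 beside -0.01 over all tested genes. The smooth muscle and pericyte markers, led by Rgs5, also had 6 of 6 negative values, with a median of -0.33 and sums of 981 ± 43.2 and 935 ± 67.6 CPM (SD, n = 3). The endothelial markers, led by Kdr, summed to 991 ± 75.6 CPM in resistant and 893 ± 111 CPM in sensitive hearts (SD, n = 3), and the fibroblast markers, led by Dcn, to 908 ± 58.2 and 873 ± 54.4 CPM. The endothelial markers had 3 positive and 4 negative values with a median of -0.06. Of them 2 had no overlap between genotypes, Kdr and Emcn, both lower in sensitive hearts and named after their values were seen. The log2 fold change was -0.50 for Kdr (adjusted p = 0.0694 by edgeR) and -0.31 for Emcn (adjusted p = 0.125 by edgeR). The fibroblast markers had 2 positive and 4 negative values with a median of -0.20, and the cardiomyocyte markers 6 and 2 with a median of 0.07. The atrial markers, led by Nppa, had 5 of 5 negative values, with a median of -0.55 and sums of 200 ± 48.7 CPM in resistant and 155 ± 14.3 CPM in sensitive hearts (SD, n = 3). The lymphocyte markers, led by Cd79a, summed to 5.43 ± 1.65 and 3.99 ± 2.39 CPM (SD, n = 3), and the adipocyte markers, led by Cfd, to 4.34, 5.21 and 3.17 CPM in resistant and 11.7, 3.68 and 3.79 CPM in sensitive hearts. Among the sensitive hearts mouse 379 alone was above the resistant hearts in the adipocyte sum. The 3 tested lymphocyte markers had negative values, with a median of -0.30, and the 4 tested adipocyte markers had positive values, with a median of 0.71. The red blood cell markers, led by Hbb-bs, had 5 of 5 positive values, with a median of 0.66, and reached 3187 CPM in mouse 380 and between 401 and 1272 CPM in the other 5 hearts. The part of these cell types in the differences of Ccnd1, Mycn and the E2F targets was not tested.

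Genes whose profile over the 6 hearts was most like that of Ccnd1 were found by the root mean square difference of centred log2 CPM. They were Ret (0.0989), Ppfia2 (0.107) and Alas1 (0.112), in log2 units. Ret, a receptor tyrosine kinase gene, had 188, 222 and 196 counts in resistant hearts and 104, 97 and 78 in sensitive hearts. Alas1, the first enzyme of heme synthesis, had 2828, 3251 and 3049 counts in resistant hearts and 1738, 1658 and 1323 in sensitive hearts. In both the sensitive hearts lay below the resistant hearts, as the choice for likeness to Ccnd1 makes them. For Mycn the nearest genes were E130317F20Rik (0.161), Ppp1r1b (0.168) and Gm16001 (0.232).

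Ccnd1 overlaps Oraov1, a gene on the opposite strand that reaches into its 3′ end (chr7:144915100-144931701), and whether the counting used strand is not given in the sources used here. Oraov1 had 396, 372 and 352 counts in resistant hearts and 335, 267 and 237 in sensitive hearts. It was lower in each sensitive heart, with a log2 fold change of -0.34 (95% interval -0.60 to -0.08) and an adjusted p of 0.206 by edgeR, and without strand its reads in the overlap cannot be told apart from those of Ccnd1. Of the other members, Ccnd3 overlaps Bysl, Cdk4 overlaps Tspan31, and Rb1 overlaps Rcbtb2 and Lpar6, on the opposite strand and with no call by edgeR. Rb1 also overlaps Gm17233 and Mir687 on its own strand, which had at most 4 counts in any heart. Ccnd2, Cdk6 and Cdkn1a overlap genes with at most 16 counts in any heart, and Mycn, Myc and Cdkn1b overlap no gene of the count table. Among the genes within 500 kilobases, 0 of the 7 tested near Ccnd1 and 0 of the 2 tested near Mycn were called by edgeR, with 1 and 0 at an unadjusted p under 0.05 and 0 called by DESeq2 at either place.

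The RefSeq promoter table (GRCm38.p6) holds windows of 250 bases before to 50 bases after a gene's start, and 6 of the 10 genes have 1 or more of them, 8 windows in all. The 4 without a window are Ccnd1, Ccnd2, Rb1 and Myc. Both strands were searched for the E2F letters TTTGGCGC and TTTCGCGC and for the E-box CACGTG, the letters that Myc and Max bind, which read the same on both strands. These letters were chosen after the Mycn window had been seen, so the shares of windows holding them are a description. Other forms of the E2F site were not searched. The Mycn window held 3 E2F matches and the windows of the other 5 genes held 0. At least 1 match was in 0.813% of 32851 windows of the same length, and at least 3 were in 2 windows. The E-box was in the windows of Cdk4, with 4 matches, and Cdk6, with 1, while 7.15% of all windows held at least 1 and 8 windows held at least 4. A match describes the letters and is not evidence of binding. The parts of the Mycn and Cdk4 windows upstream of the annotated gene are shown because they hold these matches, which are in capitals, read 5′ to 3′ on the gene's own strand. The Mycn stretch is chr12:12941915-12942086 on the minus strand, and its first run of capitals is a TTTGGCGC that overlaps a TTTCGCGC on the opposite strand. The Cdk4 stretch is chr10:127063285-127063533 on the plus strand.
Mycn: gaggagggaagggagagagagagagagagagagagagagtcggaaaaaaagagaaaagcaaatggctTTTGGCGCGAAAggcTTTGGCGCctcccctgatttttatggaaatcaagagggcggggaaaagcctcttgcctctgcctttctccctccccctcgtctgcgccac
Cdk4: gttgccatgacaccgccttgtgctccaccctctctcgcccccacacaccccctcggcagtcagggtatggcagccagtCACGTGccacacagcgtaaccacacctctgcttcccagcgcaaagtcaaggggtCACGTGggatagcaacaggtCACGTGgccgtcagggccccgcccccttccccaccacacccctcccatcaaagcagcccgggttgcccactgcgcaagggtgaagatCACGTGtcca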

How the data were processed

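RNA from 6 whole hearts was sequenced on an Illumina instrument. The submitters' processing notes name fastp, STAR, featureCounts and build mm10, and the annotation release and the strand setting are not given in the sources used here. The authors deposited whole-number counts per gene without normalization, which were used here. Their own DESeq2 comparison table, with fold changes and p-values, was not used.

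Counts were analysed in R 4.3.3 with edgeR 4.0.16 (TMM, filterByExpr with minimum count 10 and minimum total 15, quasi-likelihood test, Benjamini-Hochberg adjustment over 14866 genes, threshold 0.05). The biological coefficient of variation was 11.1%. Log2 CPM used a prior count of 2. Between hearts of a genotype the counts varied beyond counting error (chi-square of 6.35 to 11.9 per gene). Each heart is a separate mouse. The tests were run on simulated counts first. Alternatives were DESeq2 1.42.0 (independent filtering at 0.1), RLE and upper-quartile factors, other filters, edgeR's robust prior, leaving out mitochondrially encoded and globin genes, an adjusted p under 0.1, and leaving out each heart.

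The genes and lists were chosen with earlier results of these data known. Named were the 10 genes, in each list the called genes (at most 5) and the 2 other tested genes with the largest absolute log2 fold change, the most abundant marker of each list and any called marker, and the 3 genes most like each called member. Overlapping and neighbouring genes were chosen after values were seen.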

Additional observations from a re-analysis of the deposited data

How the results depend on the processing

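Groups of 3 hearts limit what can be called, and an exact permutation test of 3 against 3 cannot give a p under 0.1. Low counts limit Mycn and Myc. No paired analysis was possible because the labels give no litter, batch or shared replicate number.

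The 214 genes called in edgeR became 403 in DESeq2, 618 without a filter, 402 at an adjusted p under 0.1, and 80 to 158 when each heart was left out. The 2 of the 10 genes became 1 in DESeq2, which gave 8 of them an adjusted p and gave none to Mycn and Myc, and 1 to 2 when each heart was left out. The 4 called list genes became 9 in DESeq2, 11 without a filter, 8 at an adjusted p under 0.1 and 2 to 6 when each heart was left out. The cause was not tested. Without a filter Cdkn1a passed, with a log2 fold change of 0.47.

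Signs turned in 13 values, all with a size of at most 0.14 and an adjusted p of at least 0.796 in edgeR. With upper-quartile factors the log2 fold change was -0.0076 for Ccnd2 and -0.010 for Ccnd3, and with at least 10 counts in every heart -0.0010 for Ccnd3. When each heart was left out it ranged from -0.0541 to 0.0629 for Ccnd2, from -0.0415 to 0.0483 for Ccnd3, from -0.0931 to 0.214 for Cdk6 and from -0.44 to 0.14 for Myc. On the log2 CPM scale, not divided by length, the order of levels changed, with Ccnd1, Ccnd3 and Rb1 all above Cdk4 in mean (Rb1 in 6 of 6 hearts) and Ccnd3 above Rb1 (in 5 of 6), and 3 of 9 pairs reached the smallest p of 0.03125. No pair passed after adjustment there or without TMM factors, which says nothing of stability, since at least 6 pairs at that p are needed. With 5 hearts the sign-flip test cannot go below 0.0625.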
